A study of Mus musculus with 16 samples.

Results

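The difference between the pristane responses of AIRmax and AIRmin footpads was estimated for all 19938 genes measured on 16 arrays. It was taken as AIRmax pristane minus AIRmax control, less AIRmin pristane minus AIRmin control, on the log2 scale, so that a value above 0 stands for the more positive change in AIRmax. It was called by limma at a Benjamini-Hochberg adjusted p under 0.05 in 34 genes (0.171% of those tested). All 34 had the more positive change in AIRmax. No gene was called with the more negative change there, where the smallest adjusted p was 0.109. Of the 34 genes, 28 rose in AIRmax and were not called in AIRmin, and 6 were called in neither line taken alone. None was called in both lines or in AIRmin alone.

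AIRmax and AIRmin mice are outbred lines that were selected for a strong and a weak acute inflammatory reaction, respectively. Footpads of either line were measured with pristane and as controls, which made 4 groups, each with 4 arrays of separate mice, 2 males and 2 females. Pristane, a mineral oil that is not itself an antigen, was given as 2 intraperitoneal injections of 0.5 ml at an interval of 60 days. The day of sampling was 0 for control and 160 for pristane-treated mice, counted from the second injection in the methods of the study. Whether the control mice had received oil before day 0 is not given in the sources used here, and treatment, time and any ageing between these days cannot be told apart. The labels give the age of all mice as 2 to 4 months. This cannot be the age of the pristane-treated mice at sampling, since 160 days alone are longer than 4 months. Their age at sampling is not given. The labels do not say which mouse had arthritis. Arrays bear the numbers 105 to 108 (AIRmax control), 109 to 112 (AIRmax pristane), 113 to 116 (AIRmin control) and 117 to 120 (AIRmin pristane), so that any effect of array order and the groups cannot be told apart. The first pair of numbers in each group is male and the second pair female.

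The deposited log2 signals had array medians from 5.435 to 5.53. Footpad markers were present in the tissue, with median log2 signals of 12.6 for the epidermal keratin Krt1 and 10.22 for Krt9, a keratin of thick skin. The muscle actin Acta1 stood at 11.95 and the bone sialoprotein gene Ibsp at 9.73. Medians were 8.24 for the fat cell gene Adipoq and 9.21 for Elane, a gene of granulocyte precursors. Bone, muscle, fat, skin and blood-forming cells were thus sampled together. In such bulk tissue, fewer cells of a type and less RNA per cell cannot be told apart.

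Inflamed joints are entered by monocytes and neutrophils that follow chemokine gradients, and resident fibroblasts and macrophages answer cytokines with acute phase proteins, complement factors and proteases. Many cytokines act through STAT factors, which also switch on their own inhibitors. Matrix breakdown by metalloproteinases and matrix repair by collagen-forming fibroblasts run side by side in arthritis.

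Across the 34 called genes the median difference was 1.93, with a range from 0.72 to 4.29, and 31 genes reached at least 1. Over all genes the median was 0.01. The median response of the 34 genes was 1.43 in AIRmax (0.35 to 4.30) and -0.44 in AIRmin (-1.08 to 0.09). The AIRmax estimate was above 0 in all 34 and the AIRmin estimate was below 0 in 32, the exceptions being Saa3 and Nos2. Opposite signs of the 2 estimates stood in 38.0% of all genes, most of them near 0. No gene of the 34 was called between the lines in control footpads, where 35 genes (0.176%) were called in either direction. The absence of a call does not show equal levels. The control gap of the 34 had a median of -0.15, against -0.03 over all genes, and was below 0 in 25. The control arrays enter the difference too, so these values describe the calls. All 34 were higher in AIRmax than in AIRmin in pristane footpads, where 761 genes (3.82%) were called as higher. The gap between the lines at day 160 shares the pristane arrays with the difference and is given as a description.

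**Figure D1:**
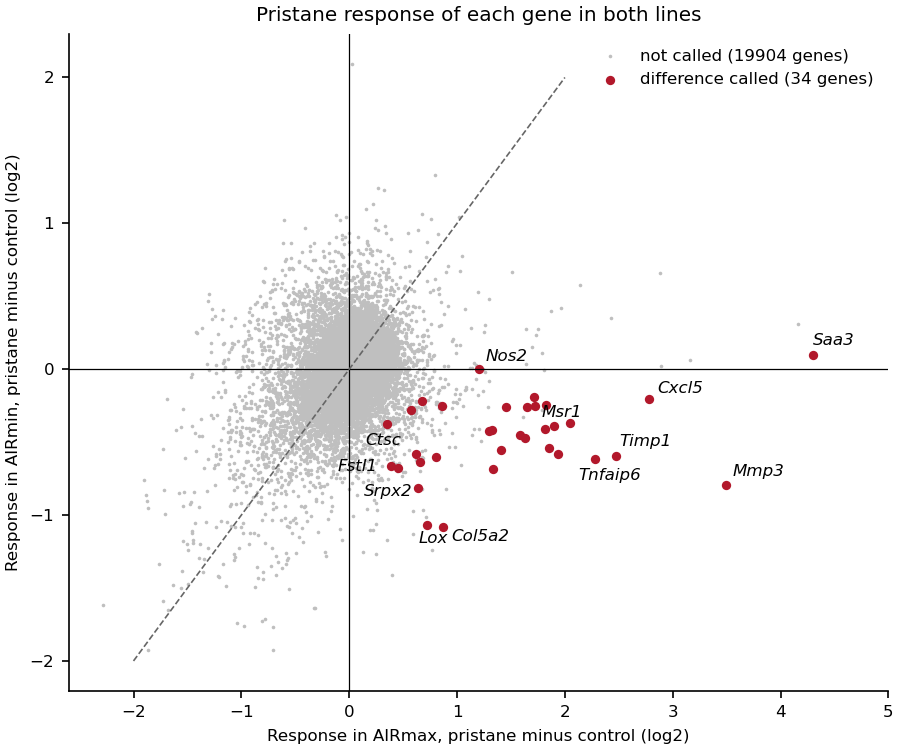
Pristane response (pristane minus control, log2) of each of 19938 genes in AIRmax (horizontal axis) and AIRmin (vertical axis). The dashed line marks equal responses, and the 34 genes called for the difference (red) lie to its right, from 0.35 to 4.30 in AIRmax and from -1.08 to 0.09 in AIRmin.

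The genes of the acute phase and of cytokine feedback had a median difference of 2.41 over 3 genes. Saa3 encodes a serum amyloid A protein made at sites of inflammation. Its log2 signals were 4.19, 3.97, 3.72 and 4.67 on the AIRmax control arrays and 8.19, 8.74, 7.69 and 9.12 on the AIRmax pristane arrays. In AIRmin they were 4.17, 4.10, 3.63 and 4.06 in control and 4.16, 4.39, 3.56 and 4.24 in pristane footpads. The AIRmax pristane arrays stood far above the other 12, which lay together. The AIRmax response was 4.30 (SE 0.28, adjusted p = 1.61e-06), a 19.7-fold rise, the AIRmin response 0.09 (SE 0.28, adjusted p = 0.941) and the difference 4.21 (SE 0.39, adjusted p = 0.000147). The means of both AIRmin groups and of AIRmax control did not exceed 4.32, the highest signal that Xist reached in males, which do not express it. These Saa3 levels are therefore near the floor of the array, and a fold against them may understate the change of a gene this dim.

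Socs3, the inhibitor that shuts down STAT3 signalling, read 6.72, 6.86, 6.87 and 6.95 in AIRmax control and 8.31, 8.45, 8.57 and 8.90 in AIRmax pristane footpads. AIRmin values were 7.18, 7.27, 7.14 and 7.27 in control and 6.97, 7.45, 6.86 and 6.81 in pristane footpads. All 4 AIRmin control arrays lay above all AIRmax control arrays, and the order of the lines was reversed at day 160. The response was 1.71 (SE 0.14, adjusted p = 1.55e-05) in AIRmax and -0.19 (SE 0.14, adjusted p = 0.678) in AIRmin, with a difference of 1.90 (SE 0.20, adjusted p = 0.000417). Slc39a14, a zinc and iron transporter of the acute phase, rose in AIRmax by 2.04 (SE 0.21, adjusted p = 0.000172), from 6.28 to 6.64 to 8.12 to 8.98. Its AIRmin ranges were 6.61 to 6.82 in control and 5.79 to 6.96 in pristane footpads, which overlapped. Its difference was 2.41 (SE 0.30, adjusted p = 0.00212).

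Timp1, the inhibitor of metalloproteinases that is also a STAT3 target, had the smallest p of all genes. It read 8.06, 8.32, 8.19 and 7.92 in AIRmax control and 10.75, 10.58, 10.29 and 10.76 in AIRmax pristane footpads. In AIRmin it read 7.77, 7.69, 7.73 and 8.09 in control and 6.83, 7.87, 6.94 and 7.25 in pristane footpads. The AIRmax values did not overlap, whereas AIRmin array 118 stayed among its controls and the other AIRmin pristane arrays lay below them. The response was 2.47 (SE 0.19, adjusted p = 8.86e-06) in AIRmax, a 5.54-fold rise, and -0.60 (SE 0.19, adjusted p = 0.216) in AIRmin. The difference was 3.07 (SE 0.27, adjusted p = 0.00011), with a 95% interval of 2.50 to 3.63.

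The highest estimate among the called genes was that of Mmp3, above that of Saa3 by less than the SE of either. Mmp3 encodes stromelysin, which cuts proteoglycans and activates other metalloproteinases. It read 6.77, 7.14, 6.65 and 6.38 in AIRmax control and 10.48, 10.22, 9.12 and 11.11 in AIRmax pristane footpads. In AIRmin the values were 7.22, 7.26, 7.03 and 7.03 in control and 6.98, 6.68, 5.56 and 6.16 in pristane footpads. Every AIRmax pristane array lay above, and every AIRmin pristane array below, the controls of its own line. The response was 3.50 (SE 0.35, adjusted p = 0.000118) in AIRmax, an 11.3-fold rise, and -0.79 (SE 0.35, adjusted p = 0.414) in AIRmin, and the difference was 4.29 (SE 0.49, adjusted p = 0.000924). Mmp19, another metalloproteinase, had a difference of 1.91 (SE 0.30, adjusted p = 0.0175). Ctsc, the cathepsin that activates serine proteases of granules, differed by 1.20 (SE 0.17, adjusted p = 0.0109). Its AIRmax response of 0.62 and its AIRmin estimate of -0.58 were of nearly equal size, and the arrays did not overlap in either line.

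The promoters of 4 genes that moved together are shown here: the 3 with the smallest p (Timp1, Saa3 and Socs3) and the one with the highest estimate of the difference (Mmp3). Each runs from 250 bases before to 50 bases after a transcript start of RefSeq on GRCm38.p6. Capitals mark matches on either strand. The letters searched for STAT factors were TTCNNNGAA. Those for the AP-1 family were TGANTCA, and those for the C/EBP family were TTGCNNAA. The TATA box was searched as TATAAA. Saa3 lies at chr7:46715627-46715926 on the minus strand, Socs3 at chr11:117969317-117969616 on the minus strand, Timp1 at chrX:20869916-20870215 on the plus strand and Mmp3 at chr9:7445572-7445871 on the plus strand. The windows of Saa3 and Socs3 lie inside the annotated extent of their genes, at the start of a shorter transcript.
Saa3: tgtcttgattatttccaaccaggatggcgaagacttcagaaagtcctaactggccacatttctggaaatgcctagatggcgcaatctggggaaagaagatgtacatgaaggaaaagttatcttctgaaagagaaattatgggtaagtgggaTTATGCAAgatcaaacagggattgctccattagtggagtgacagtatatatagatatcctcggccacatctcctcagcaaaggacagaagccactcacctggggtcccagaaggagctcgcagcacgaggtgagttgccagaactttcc
Socs3: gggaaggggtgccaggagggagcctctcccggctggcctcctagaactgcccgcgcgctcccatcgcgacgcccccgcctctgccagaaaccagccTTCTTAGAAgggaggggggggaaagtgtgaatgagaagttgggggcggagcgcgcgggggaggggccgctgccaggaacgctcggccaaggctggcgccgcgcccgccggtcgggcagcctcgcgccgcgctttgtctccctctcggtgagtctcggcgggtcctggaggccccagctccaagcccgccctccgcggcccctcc
Timp1: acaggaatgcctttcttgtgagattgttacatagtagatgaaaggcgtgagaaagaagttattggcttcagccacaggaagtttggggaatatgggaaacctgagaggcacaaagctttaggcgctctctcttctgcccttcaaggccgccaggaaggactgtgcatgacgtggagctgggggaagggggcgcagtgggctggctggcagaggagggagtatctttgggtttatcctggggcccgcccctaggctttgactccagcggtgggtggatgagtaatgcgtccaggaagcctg
Mmp3: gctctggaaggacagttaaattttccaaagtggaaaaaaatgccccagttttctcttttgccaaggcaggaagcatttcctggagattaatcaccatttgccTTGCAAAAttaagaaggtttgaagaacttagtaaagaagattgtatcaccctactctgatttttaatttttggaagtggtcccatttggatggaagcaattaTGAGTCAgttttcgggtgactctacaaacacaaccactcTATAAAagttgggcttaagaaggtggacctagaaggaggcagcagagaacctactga
The Saa3 window holds a C/EBP match at -99 and the Socs3 window a STAT match at -154 from the start. The Mmp3 window holds an AP-1 match at -46, a C/EBP match at -148 and TATAAA at -7. None of these letters is in the Timp1 window.

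RefSeq promoters were at hand for 18 of the 34 genes (19 promoters) and for 15563 of the 19938 genes (19116 promoters). The AP-1 letters were in 7 of the 19 (36.8%) and in 6.88% of all promoters. They were in those of Mmp3, C3ar1, Cd68, Ms4a7, Srpx2, Tnfaip6 and Trem2. The C/EBP letters were in 5 of 19 (26.3%) against 9.76%, and the STAT letters in 3 of 19 (15.8%) against 7.68%. TATAAA was in 15.8% against 11.5%. An NF-kappaB motif was in 1 of 19 (5.26%) against 9.54%. These shares are descriptions of letters in short windows.

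In all, 3 chemokines were called, with differences from 2.07 to 2.98. Ccl2 and Ccl7, neighbours on chromosome 11, draw monocytes through the receptor Ccr2. Ccl7 read 5.67, 5.73, 6.36 and 6.05 in AIRmax control and 8.07, 8.40, 6.82 and 8.23 in AIRmax pristane footpads. In AIRmin it read 6.17, 6.07, 6.51 and 6.76 in control and 5.71, 5.65, 5.77 and 6.06 in pristane footpads. The arrays did not overlap in either line, although array 111 stood well below the other AIRmax pristane arrays. The response was 1.93 (SE 0.28, adjusted p = 0.0026) in AIRmax and -0.58 (SE 0.28, adjusted p = 0.468) in AIRmin, and the difference was 2.51 (SE 0.39, adjusted p = 0.0163). Ccl2 rose in AIRmax by 1.83 (SE 0.24, adjusted p = 0.00163), again with array 111 lowest at 6.17, and its difference was 2.07 (SE 0.34, adjusted p = 0.021). Cxcl5, a ligand of the neutrophil receptor Cxcr2, read 4.56, 4.33, 4.57 and 5.17 in AIRmax control and 7.40, 7.50, 6.19 and 8.63 in AIRmax pristane footpads. Its AIRmin means of 4.28 ± 0.11 and 4.07 ± 0.19 (SD, n = 4) were near the floor of the array. The difference was 2.98 (SE 0.49, adjusted p = 0.021).

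**Figure D2:**
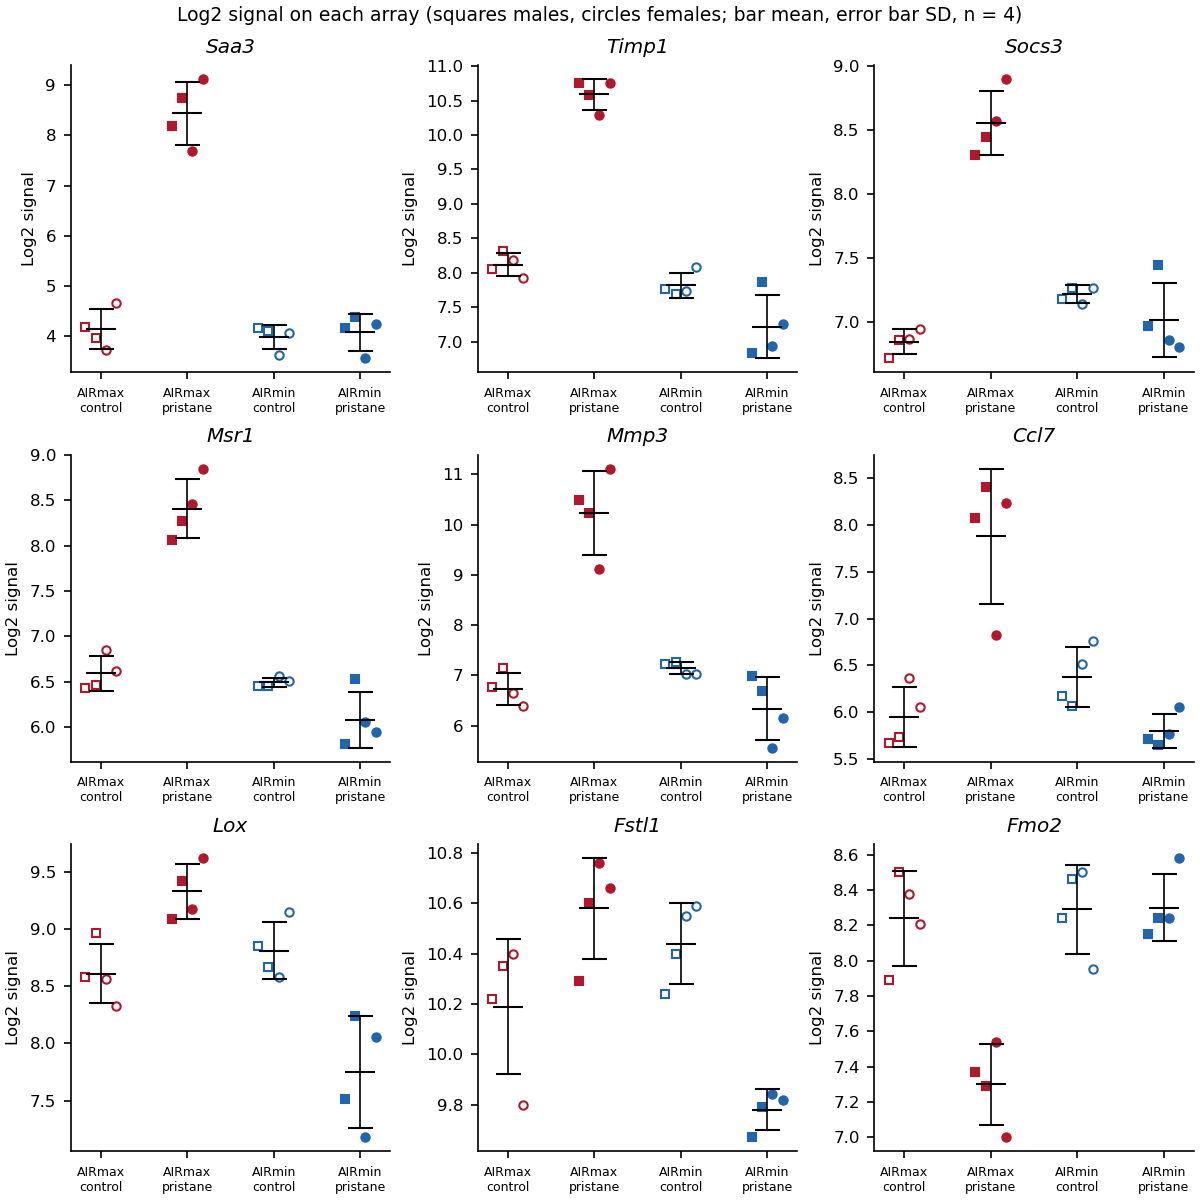
Log2 signal of 9 genes on each array, by group (squares males, circles females, horizontal bar mean, error bar SD, n = 4). Timp1, Saa3 and Mmp3 rise in AIRmax pristane footpads alone, the gap in Lox and Fstl1 lies largely in lower AIRmin pristane values, and Fmo2 is low in AIRmax pristane footpads with an uncalled difference.

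Both complement genes stood close together. Cfb, factor B of the alternative pathway, differed by 1.72 (SE 0.27, adjusted p = 0.0163). C3ar1, the receptor of the C3 fragment that attracts myeloid cells, differed by 1.96 (SE 0.32, adjusted p = 0.021). Both rose in AIRmax, by 1.30 (adjusted p = 0.00297) for Cfb and by 1.41 (adjusted p = 0.00601) for C3ar1.

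Of genes of macrophage surfaces and lysosomes, 6 were called, with a median difference of 2.02. Msr1, the class A scavenger receptor, read 6.43, 6.46, 6.85 and 6.62 in AIRmax control and 8.06, 8.27, 8.46 and 8.85 in AIRmax pristane footpads. AIRmin values were 6.45, 6.45, 6.56 and 6.51 in control and 5.81, 6.53, 6.05 and 5.94 in pristane footpads. As for Timp1, array 118 alone of the AIRmin pristane arrays was not below the controls. The response was 1.82 (SE 0.17, adjusted p = 6.26e-05) in AIRmax and -0.41 (SE 0.17, adjusted p = 0.368) in AIRmin, with a difference of 2.23 (SE 0.24, adjusted p = 0.000427). Cd14, which presents bacterial lipid to Toll-like receptors, differed by 2.03 (SE 0.30, adjusted p = 0.0109). Its AIRmax pristane arrays read 8.07, 7.76, 8.04 and 9.07, against 6.53 to 6.80 in control, and its AIRmin pristane arrays 6.45, 6.68, 6.08 and 6.12, against 6.71 to 6.82. Neither line overlapped. Clec4n, the fungal receptor also known as Dectin-2, differed by 2.02 (SE 0.37, adjusted p = 0.0434), and Ms4a7, a membrane protein of macrophages, by 2.10 (SE 0.33, adjusted p = 0.0163). Trem2, a lipid receptor of macrophages, differed by 1.11 (SE 0.20, adjusted p = 0.0345). Cd68, a lysosomal marker of macrophages, differed by 1.41 (SE 0.25, adjusted p = 0.0346), of which 42.7% lay in the AIRmin estimate.

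The 10 matrix genes formed the most mixed group, since 5 were called in AIRmax and 5 were called in neither line. Their median response was 0.79 in AIRmax and -0.65 in AIRmin. Tnfaip6, a hyaluronan-binding protein induced by tumour necrosis factor, had the highest estimate, 2.89 (SE 0.50, adjusted p = 0.0242). It read 5.44, 5.79, 6.64 and 6.14 in AIRmax control and 7.98, 8.29, 8.17 and 8.69 in AIRmax pristane footpads. In AIRmin the spread was wide, 6.03 to 7.67 in control and 5.41 to 6.85 in pristane footpads. Cthrc1, a secreted protein of repairing tissue, differed by 2.39 (SE 0.40, adjusted p = 0.021). P4ha3, a prolyl hydroxylase of collagen, differed by 1.71 (SE 0.29, adjusted p = 0.0231). Sfrp2, a secreted modulator of Wnt signals, differed by 1.74 (SE 0.30, adjusted p = 0.0238). Svep1, a large adhesion protein of the matrix, differed by 1.29 (SE 0.21, adjusted p = 0.021) with no overlap of arrays in either line.

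The 6 genes called for the difference and in neither line taken alone were 5 of these matrix genes (Lox, Col5a2, Ccn4, Fstl1 and Srpx2) and Pofut2. In each, more than 50% of the difference lay in the AIRmin estimate, from 51.6% to 63.1%. Lox, the enzyme that cross-links collagen, read 8.58, 8.97, 8.56 and 8.33 in AIRmax control and 9.09, 9.42, 9.18 and 9.62 in AIRmax pristane footpads. In AIRmin it read 8.85, 8.67, 8.58 and 9.15 in control and 7.51, 8.24, 7.18 and 8.06 in pristane footpads. The groups did not overlap in either line, and the direction was opposite. The AIRmax estimate was 0.72 (SE 0.21, adjusted p = 0.0989), the AIRmin estimate -1.07 (SE 0.21, adjusted p = 0.0815) and the difference 1.79 (SE 0.30, adjusted p = 0.0212). Col5a2, a chain of the fibrillar collagen V, read 9.12, 9.35, 9.11 and 8.68 in AIRmax control and 9.41, 9.85, 10.23 and 10.24 in AIRmax pristane footpads. Its AIRmin values were 9.42, 8.98, 8.78 and 9.49 in control and 7.98, 8.55, 7.60 and 8.23 in pristane footpads. Here too each line separated, in opposite directions, with estimates of 0.87 (adjusted p = 0.0732) in AIRmax and -1.08 (adjusted p = 0.0826) in AIRmin and a difference of 1.95 (SE 0.33, adjusted p = 0.0212).

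Fstl1, a secreted glycoprotein of mesenchymal cells, had the largest share in AIRmin, 63.1%. Its AIRmin values were 10.24, 10.40, 10.55 and 10.59 in control and 9.67, 9.79, 9.84 and 9.82 in pristane footpads, without overlap. In AIRmax they were 10.22, 10.35, 10.40 and 9.80 in control and 10.29, 10.60, 10.76 and 10.66 in pristane footpads, with overlap. The difference was 1.06 (SE 0.19, adjusted p = 0.0321). Ccn4, a matricellular protein of the Wnt pathway, differed by 1.13 (SE 0.20, adjusted p = 0.0242) and Srpx2, a sushi-repeat protein, by 1.45 (SE 0.27, adjusted p = 0.05), the latter just under the threshold. Pofut2, which adds fucose to thrombospondin repeats, differed by 0.72 (SE 0.14, adjusted p = 0.0475), the smallest difference called. Just outside the threshold stood Ccl3, a chemokine of macrophages, at 2.87 (adjusted p = 0.0572).

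The remaining genes have other roles. Bdkrb1, the inducible kinin receptor of pain and swelling, differed by 1.98 (SE 0.29, adjusted p = 0.0109). In AIRmax the controls read 4.48 to 4.98 and the pristane arrays 6.12 to 7.29, and in AIRmin 5.26 to 5.63 and 4.95 to 5.24, so that neither line overlapped. Pdpn, podoplanin of lymphatic vessels and joint-lining fibroblasts, differed by 2.29 (SE 0.31, adjusted p = 0.00585). Nos2, the inducible nitric oxide synthase, rose in AIRmax by 1.21 (adjusted p = 0.000603) with an AIRmin estimate of 0.00, and differed by 1.21 (SE 0.20, adjusted p = 0.021). Rrad, a small GTPase of muscle, differed by 0.89 (SE 0.14, adjusted p = 0.0163). Renbp, an epimerase of amino sugars, differed by 0.85 (SE 0.15, adjusted p = 0.0275).

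The share of the difference that lay in the AIRmin estimate ran from -2.26% in Saa3 to 63.1% in Fstl1, with a median of 22.5%. It was under 20% in 13 genes, among them Saa3, Nos2, Cxcl5, Socs3 and Ccl2. For Saa3 and Cxcl5 both AIRmin means were at or below 4.32, the floor given above. Y-linked genes read lower still in females, 2.04 to 3.34, so 4.32 is not a strict limit. A fall in AIRmin may still have been compressed there, and the shares of both genes are uncertain. By arrays, 31 of the 34 had every AIRmax pristane array above every AIRmax control array, as had 5.09% of all genes. Every AIRmin pristane array lay below every AIRmin control array in 14 of the 34, as in 4.32% of all genes. Both held in 11 of the 34, as in 0.115% of all genes. These 11 were Mmp3, Ctsc, Bdkrb1, Cd14, Ccl7, Rrad, Svep1, Lox, Col5a2, Renbp and Pofut2. The difference and these counts rest on the same arrays, so the counts describe the calls and are no further test. In 27 of the 34 the AIRmax pristane arrays lay above all other 12 arrays, as in 0.968% of all genes.

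**Figure D3:**
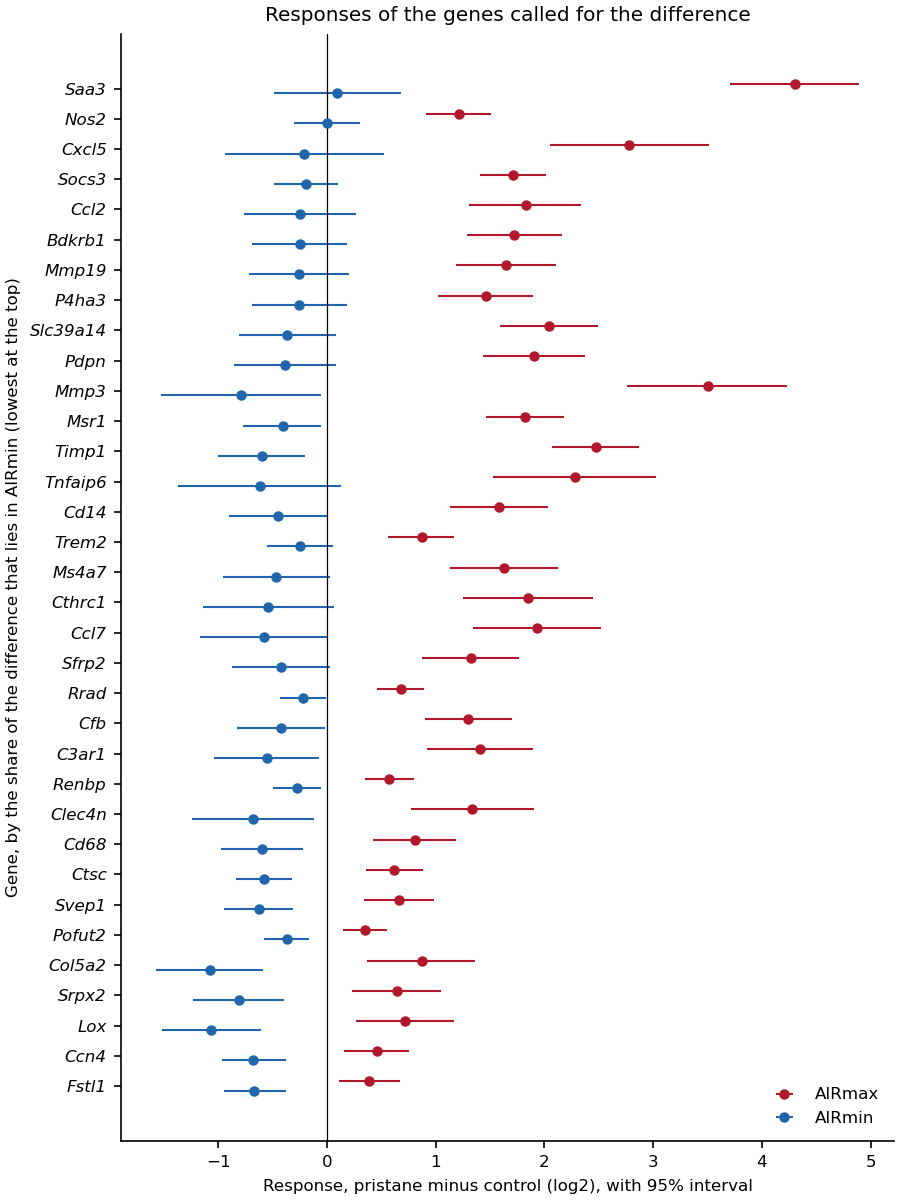
Pristane response (log2) with 95% interval of the 34 called genes in AIRmax (red) and AIRmin (blue), ordered by the share of the difference that lies in AIRmin. Saa3 at the top has an AIRmin estimate of 0.09 from signals near the floor of the array, and the 6 genes at the bottom, called in neither line alone, have AIRmin estimates from -1.08 to -0.37.

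Among the single responses, 149 genes (0.747%) rose and 189 (0.948%) fell in AIRmax, and 11 fell in AIRmin (0.0552%). Of the 338 genes called in AIRmax, the difference was called in 28 and not in 310. For those of the 310 that were not called in AIRmin, a call in one line and none in the other does not show that the lines differed. None of the 11 genes called in AIRmin was called for the difference, with adjusted p from 0.0625 to 0.965. Of these, 4 (Abca9, Ecm2, Fcer2a and Ogn) fell in both lines. The gene nearest to a change in AIRmin alone was Ccn1, a matricellular protein that responds to growth factors and stretch, which was singled out after its values were seen. Its AIRmin values were 8.60, 9.27, 8.99 and 9.43 in control and 7.60, 8.10, 7.71 and 7.88 in pristane footpads, a fall of 1.25 on the log2 scale (SE 0.20, adjusted p = 0.0459). The AIRmax values were 7.54, 8.25, 8.51 and 8.03 in control and 8.10, 8.38, 8.33 and 8.05 in pristane footpads, which overlapped. Its difference was 1.38 (SE 0.28, adjusted p = 0.0625), which missed the threshold. The lines stood apart mainly at the start, where every AIRmin control array lay above every AIRmax control array. AIRmax minus AIRmin was -0.99 (adjusted p = 0.0677) in control and 0.39 (adjusted p = 0.249) in pristane footpads, neither of them called.

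With the more negative change in AIRmax, 562 genes (2.82%) had an unadjusted p under 0.05, against 1075 (5.39%) with the more positive change. Fmo2, a flavin monooxygenase, had the smallest p of the former. In AIRmax it averaged 8.24 ± 0.27 in control and 7.30 ± 0.23 in pristane footpads (SD, n = 4), while the 2 AIRmin groups read 7.95 to 8.50 (control) and 8.15 to 8.58 (pristane). It fell in AIRmax by 0.94 on the log2 scale (adjusted p = 0.00681), while its difference of -0.96 (adjusted p = 0.109) was not called. Pla2g2a, a secreted phospholipase, started from a higher level in AIRmax control (7.34 to 7.88) than in AIRmin control footpads (4.68 to 5.14). It fell in AIRmax to 5.15 to 6.73, by 1.69 on the log2 scale (adjusted p = 0.0032). Its AIRmin pristane values were 4.36 to 4.97, and its difference was -1.48 (adjusted p = 0.126). The gap between the lines in control footpads was 2.67 (adjusted p = 6.72e-05). Both AIRmin groups lay close to the 4.32 that Xist reached in males, so a fall in AIRmin may have been compressed. For Mtmr1, Ermp1, Clcn3, Tmem40, Prxl2a, Gm5105, Rdh12 and Rnf167 the differences ran from -1.08 to -0.45, with adjusted p from 0.116 to 0.15.

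In the opposite pattern, 5 genes (0.0251%) had all AIRmax pristane arrays below and all AIRmin pristane arrays above the controls of their line: Mtmr1, Gm5105, Lce6a, Nop53 and Usp7. The last pair was named after its values were seen. None was called. Gm5105 read 3.26 to 3.93 over all arrays, below the 4.32 that Xist reached in males, so its separation lies near the floor of the array. The largest of the 5, Lce6a of the cornified skin envelope, read 8.43, 9.10, 9.06 and 8.43 in AIRmax control and 7.35, 8.37, 8.20 and 5.88 in AIRmax pristane footpads. Its difference was -1.82 (adjusted p = 0.303). Col12a1, a fibril-associated collagen, and Igsf10 were among the 10 largest in the other opposite direction and were not called, at 1.51 (adjusted p = 0.064) and 1.25 (adjusted p = 0.169).

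The other members of these gene families were followed in lists of genes with known roles. Of 26 collagens, 1 was called and 20 had a more positive change in AIRmax at an unadjusted p under 0.05, with a median difference of 0.91. Of all genes, 0.171% were called, and 5.39% had a more positive and 2.82% a more negative change at that p, beside which the counts of each list stand. In all 40 lists were scored, of which 15 held a called gene. The median response of the collagens was 0.41 in AIRmax and -0.47 in AIRmin. Col3a1, the collagen of loose tissue, read 11.30, 11.97, 11.90 and 11.87 in AIRmax pristane and 10.28, 10.33, 9.52 and 9.95 in AIRmin pristane footpads, with a difference of 1.72 (adjusted p = 0.0623). Of 27 genes that process collagen or form matrix, 3 were called (Lox, P4ha3 and Cthrc1) and 23 had an unadjusted p under 0.05 in that direction, with medians of 0.27 in AIRmax and -0.60 in AIRmin. In both lists none had a more negative change at that p. Of 24 metalloproteinases and inhibitors, 3 were called and 14 had an unadjusted p under 0.05 in that direction, among them the aggrecanase gene Adamts4 at 1.08 (adjusted p = 0.0654).

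Of 17 genes of lysosomes and cathepsins, 1 was called and 13 had a more positive change at an unadjusted p under 0.05, with a median difference of 0.71. Lgmn, the protease legumain, stood at 1.05 (adjusted p = 0.0683) and the cathepsin Ctsb at 0.98 (adjusted p = 0.0836). Of 24 genes of macrophages and monocytes, 4 were called (Msr1, Trem2, Cd68 and Ms4a7), 10 had a more positive and 1 a more negative change at that p, and the median difference was 0.56. The median response of this list was only 0.19 in AIRmax and -0.42 in AIRmin. In the AIRmax response 5 of its genes were called as rising and 2 as falling, beside 0.747% and 0.948% of all genes. The list's score, which averages over its genes how far each lies from its own 16-array mean, ran from 0.22 to 0.50 in AIRmax pristane and from -0.71 to -0.05 in AIRmin pristane footpads. In control footpads it ran from -0.08 to 0.23 in AIRmax and from -0.20 to 0.10 in AIRmin. In the list of C-type lectins and Toll-like receptors, 2 of 24 were called (Cd14 and Clec4n) and 9 had a more positive change at that p. Of 18 complement genes, 2 were called, 7 had a more positive and 1 a more negative change. C1qa, which starts the classical pathway, stood at 1.09 (adjusted p = 0.0863).

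Of 18 CC chemokines, 2 were called, and 8 had a more positive and 2 a more negative change at an unadjusted p under 0.05. Ccl3 read 5.99, 6.22, 6.29 and 6.77 in AIRmax control and 8.47, 8.42, 9.99 and 9.93 in AIRmax pristane footpads, a rise of 2.89 (SE 0.40, adjusted p = 0.002). Of 15 CXC chemokines, 1 was called, 7 had a more positive and 1 a more negative change, and the median difference was only 0.11. Cxcl13, which draws B cells, rose in AIRmax by 4.17 (SE 0.58, adjusted p = 0.00215). Its pristane values there were 9.48, 9.29, 11.70 and 11.89, high in females and lower in males, and its difference of 3.85 (SE 0.82, adjusted p = 0.0729) was not called. Cxcl2, a ligand of the neutrophil receptor, rose in AIRmax by 1.87 (adjusted p = 0.000678) and had a difference of 1.48 (adjusted p = 0.0831). Of 40 inflammatory cytokines and receptors none was called by limma, and 9 had a more positive and 1 a more negative change at an unadjusted p under 0.05. Il10ra, a receptor chain of interleukin 10, stood at 0.98 (adjusted p = 0.148). Of 18 subunits and regulators of NF-kappaB none was called, and 7 had a more positive change, led by Traf1 at 0.69 (adjusted p = 0.0729). In the acute phase list 3 of 22 were called, all named above, with 6 more positive and 1 more negative. Of 19 Fc receptors and adaptors 1 was called (Trem2), and of 20 genes of synovial fibroblasts 2 were called (Pdpn and Tnfaip6).

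Lists of other cells and tissues also differed in level between the groups. All 30 skeletal muscle genes had estimates below 0, with a median difference of -1.04, and 16 had an unadjusted p under 0.05, although none was called. The median response of muscle genes was -0.97 in AIRmax and 0.10 in AIRmin. Their score in AIRmax spanned -0.33 to 0.30 in control and -1.59 to -0.02 in pristane footpads. In AIRmin it spanned -0.63 to 0.86 and 0.27 to 0.68. Mylpf, a myosin light chain of fast muscle, read 8.38, 8.34, 7.22 and 7.67 in AIRmax pristane footpads, lowest on the female arrays. All 20 keratinocyte genes had estimates below 0 too, with a median of -0.65, but their score was split inside AIRmax pristane footpads. It read -0.96, 0.37, 0.34 and -1.96 on arrays 109 to 112, against -0.93 to 0.32 in AIRmax control. Arrays 110 and 111 thus lay above all AIRmax controls. In AIRmin the score spanned -0.07 to 0.39 in control and -0.12 to 0.89 in pristane footpads. None of the 20 genes had an unadjusted p under 0.05. Of 18 endothelial genes 6 had a more positive change at that p, with medians of -0.04 in AIRmax and -0.44 in AIRmin. The list of osteoblasts and bone matrix had the lowest median response in AIRmin of all 40 lists, -0.92, against -0.45 in AIRmax. Its score in AIRmin spanned 0.21 to 0.83 in control and -0.97 to -0.14 in pristane footpads, and the mean of Ibsp there was 9.94 and 8.67. Of its 10 genes 3 had a more positive change in AIRmax at an unadjusted p under 0.05 and none was called. The bone list thus stood lower in the same AIRmin arrays as the collagen and matrix genes, and its part in their differences was not tested. Of 10 genes of MHC class II presentation, 8 had estimates below 0 and none was called for the difference, with a median of -0.42. In AIRmax 4 of them fell, beside 0.948% of all genes.

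With the muscle score as a covariate, 8 of the 34 genes were called and no other gene: Timp1, Saa3, Mmp3, Msr1, Socs3, Slc39a14, Pdpn and Ccl2. All 34 estimates remained above 0, with a median of 1.70 in place of 1.93. Lox then had a difference of 1.60 (adjusted p = 0.187), Col5a2 1.60 (adjusted p = 0.187) and Fstl1 1.01 (adjusted p = 0.208). The score follows the groups, so the part of muscle content in these differences cannot be separated fully from the line and the treatment.

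Markers of granulocytes varied widely inside each group. The score of 7 granulocyte precursor genes, such as Elane and Mpo of the primary granules, spanned 0.01 to 2.20 in the controls and -0.58 to 2.19 in the pristane arrays of AIRmax. In AIRmin it spanned -2.36 to -0.14 and -1.82 to 1.43. It was highest on arrays 108, 109, 112 and 118. None of these genes, nor of 15 genes of mature neutrophils, had an unadjusted p under 0.05. With this score as a covariate all 34 genes were called again, with a median of 1.97, and 410 further genes besides. In all 444 were called, of which 188 had the more negative change in AIRmax and 8 were called in both lines in opposite directions. Those further calls were absent without the covariate, and their source was not tested.

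Of 17 genes stimulated by type I interferon none was called and none had an unadjusted p under 0.05, with a median difference of -0.14. Of 23 cell cycle genes none reached that p either, with a median of -0.22. Of 16 genes in the B cell list, 6 fell in AIRmax and none was called in AIRmin, where the median response was -0.71, against -0.94 in AIRmax. Of all genes, 0.948% fell in AIRmax and 0.0552% in AIRmin. Fcer2a, a B cell receptor of immunoglobulin E that is not in the list, fell in both lines. No listed gene was called for the difference, and 3 had a more negative change at an unadjusted p under 0.05. Fcmr, the receptor of immunoglobulin M, stood at -0.89 (adjusted p = 0.18). Of 19 fat cell genes none was called for the difference, with medians of -0.92 in AIRmax and -0.53 in AIRmin.

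**Figure D4:**
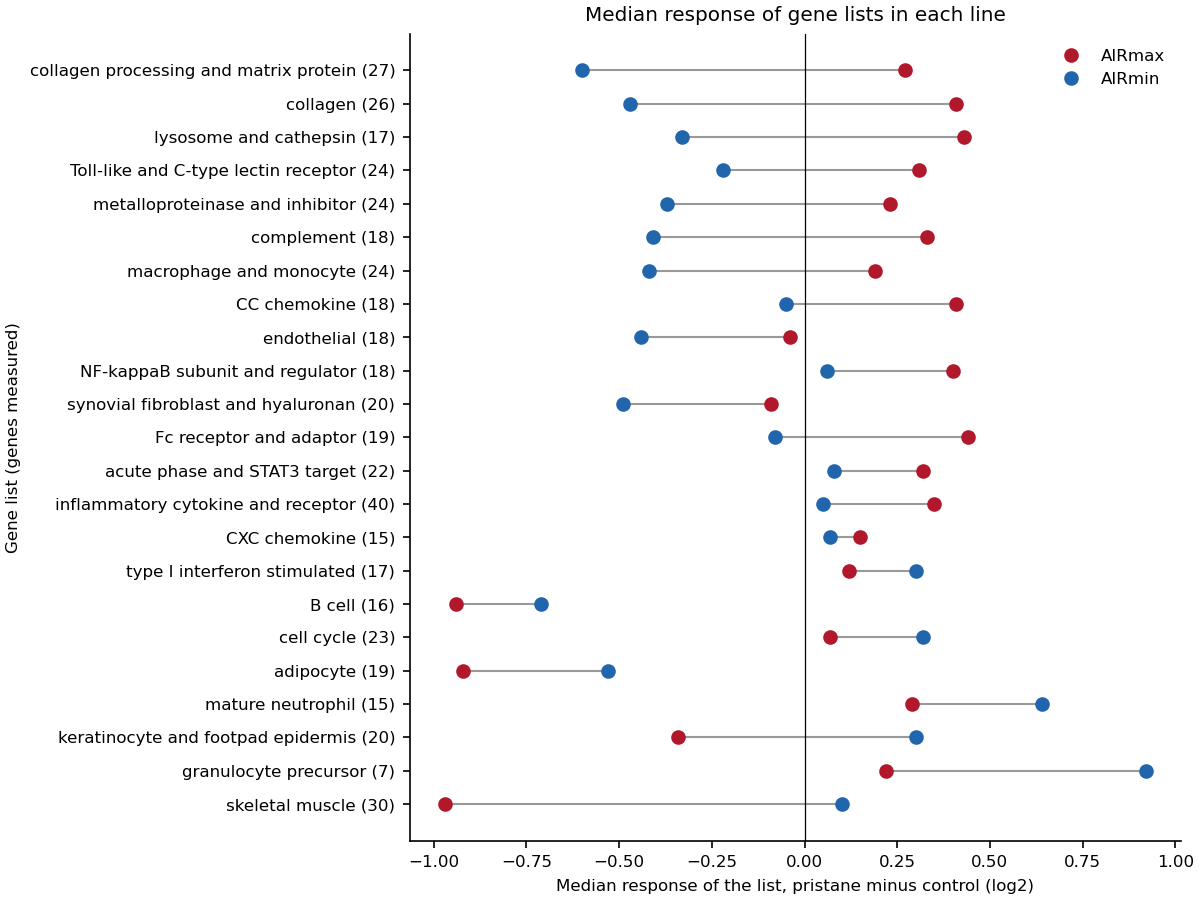
Median pristane response (log2) of 23 gene lists in AIRmax (red) and AIRmin (blue), ordered by the median difference, with the number of genes measured in brackets. Collagen lists at the top have medians on opposite sides of 0 (0.41 and -0.47 for collagens), and skeletal muscle at the bottom runs the other way (-0.97 and 0.10).

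Single arrays differed in level inside the pristane groups. In AIRmax pristane footpads, array 112 was the highest in 27 of the 34 genes and array 109 the lowest in 20. In AIRmin pristane footpads, array 118 was the highest in 21 and array 119 the lowest in 17. The median SD of the 34 genes was 0.37 in AIRmax pristane footpads against 0.19 for all genes. It was above that of all genes in the other groups too. It was 0.24 against 0.16 in AIRmax control, 0.18 against 0.14 in AIRmin control and 0.29 against 0.18 in AIRmin pristane footpads. The female arrays gave the larger difference in 28 of the 34 genes, with a median of 2.20 in females and 1.46 in males. Over all genes it was larger in females in 53.6%, with medians of 0.02 and 0.00. The 34 genes were called on the arrays of both sexes together, so these values describe the calls. The sex difference was not called in any gene by limma, with 492 genes at an unadjusted p under 0.05, 4 of the 34 among them.

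**Figure D5:**
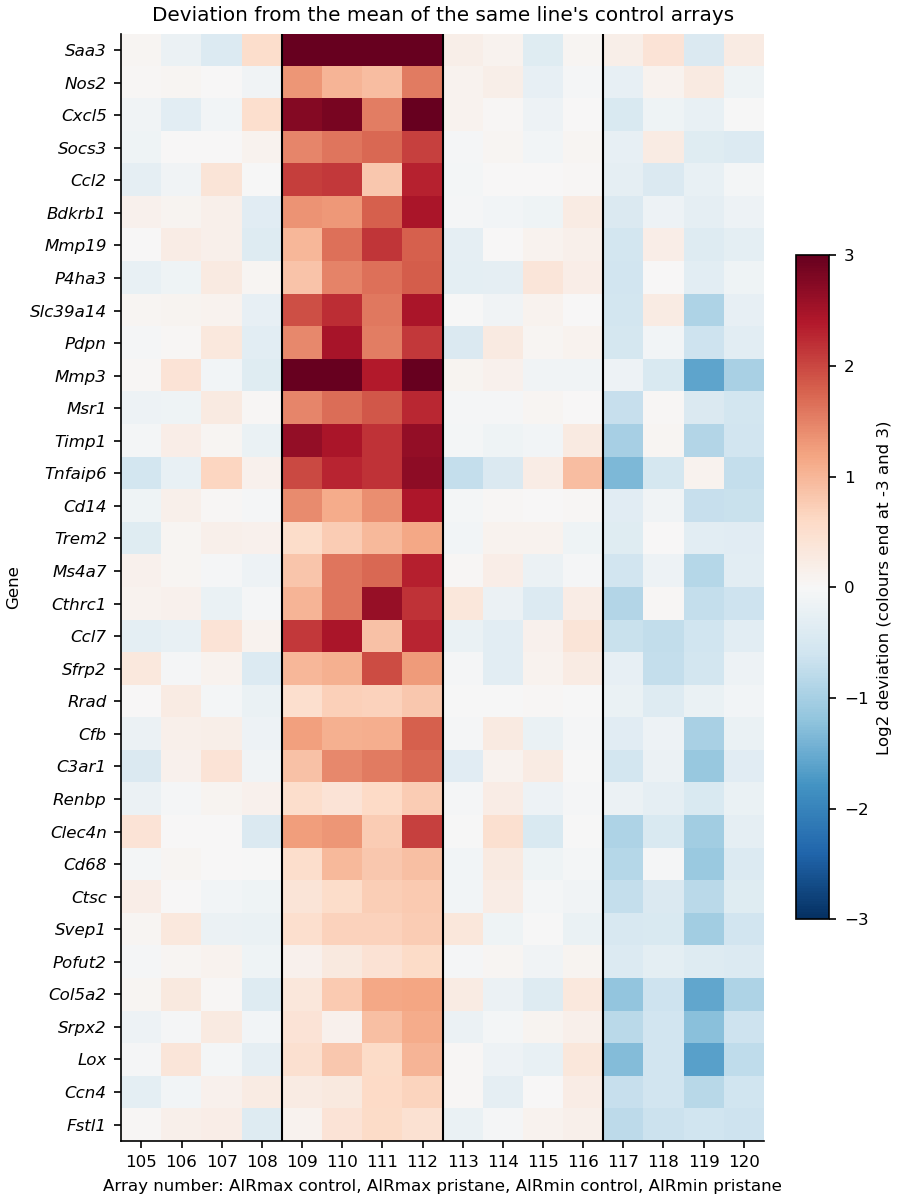
Log2 deviation of the 34 called genes (rows, in the order of the plot of responses with intervals) on each of 16 arrays (columns) from the mean of the control arrays of the same line. Columns 109 to 112 (AIRmax pristane) mark higher values in all 34 genes on average, and array 112 is the highest of them in 27 genes.

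Leaving out 1 array at a time left 14 of the 34 genes called in all 16 fits, in order of p from Timp1 to Ms4a7: Timp1, Saa3, Socs3, Msr1, Mmp3, Slc39a14, Pdpn, Ctsc, Bdkrb1, Cd14, Cfb, Ccl7, Rrad and Ms4a7. The other 20 lost the call in at least 1 fit. Without AIRmin control array 116, 15 genes were called, and without AIRmax pristane array 109, 120, which included all 34. All 34 estimates stayed above 0 in these fits. The called genes lay on 19 chromosomes, with at most 5 on any of them (Socs3, Ccl2, Ccl7, Nos2 and Cd68 on chromosome 11). On chromosome 11 these were 5 of 1563 genes tested, beside 0.171% called over all genes.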

How the data were processed

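Footpad RNA of 16 mice was hybridized to Affymetrix Mouse Gene 1.0 ST arrays. The values used are the log2 signals per probe set that the authors deposited. Sample titles name RMA at gene level, the submitters' processing notes name MAS5 with no version, and the methods of the study describe a log transformation and standardization over each array. Array quartiles were nearly equal, and no further normalization was done. Of 35556 probe sets, 21789 named 1 gene in the platform annotation, 1621 named several and 12146 none, and only the first were kept. The brightest probe set stood for each of 998 genes that had several, which left 19938 genes. Of the called genes only Socs3 had several. Entrez numbers of 21698 probe sets matched RefSeq, which gave symbols and, on GRCm38.p6, promoters.

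The 4 group means were fitted to all arrays with limma 3.58.1 (lmFit and eBayes, constant prior) in R 4.3.3, and adjusted p (Benjamini-Hochberg, 19938 genes) under 0.05 made a call. Errors beside contrasts are SE of limma, with 12 residual degrees of freedom, and intervals are 95%. The study tested pairs of groups by SAM and not this contrast. The fit was tested on simulated data. Xist and the Y-linked genes matched the labelled sex on all arrays. Arrays count no reads, and their number limits the precision.

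The members and lists were chosen with earlier results of these data known. Genes were named when they were called for the difference, had 1 of the 10 smallest p with the more negative change, had 1 of the 10 largest opposite changes without overlap, or were the called members or the 3 smallest p of a described list. Motifs were searched on both strands. Alternatives were the mean of probe sets, bright genes only, quantile normalization, standardized arrays, a trended robust prior, array weights, sex, the muscle score or the granulocyte score as a covariate, 1 sex only, each array left out, fits of the 8 arrays of each line, and a difference of at least 1. Tables used pandas 2.3.3 and numpy 2.4.6 under Python 3.11.15, and figures matplotlib 3.10.9.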

Additional observations from a re-analysis of the deposited data

Results flagged for a closer look

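The difference between the responses of the lines was tested directly and was called in 34 genes. Among genes of the acute phase and of proteases it was 3.07 in Timp1, 4.21 in Saa3, 1.90 in Socs3, 2.41 in Slc39a14, 4.29 in Mmp3, 1.91 in Mmp19 and 1.20 in Ctsc. The chemokines stood at 2.51 in Ccl7, 2.07 in Ccl2 and 2.98 in Cxcl5, and the complement genes at 1.72 in Cfb and 1.96 in C3ar1. Macrophage genes stood at 2.23 in Msr1, 2.03 in Cd14, 2.10 in Ms4a7, 1.11 in Trem2, 1.41 in Cd68 and 2.02 in Clec4n. In matrix genes the difference was 1.29 in Svep1, 2.39 in Cthrc1, 1.79 in Lox, 1.95 in Col5a2, 1.71 in P4ha3, 1.74 in Sfrp2, 2.89 in Tnfaip6, 1.13 in Ccn4, 1.06 in Fstl1 and 1.45 in Srpx2. The others were 2.29 in Pdpn, 1.98 in Bdkrb1, 0.89 in Rrad, 1.21 in Nos2, 0.85 in Renbp and 0.72 in Pofut2.

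One array stood apart from the other 3 of its group, by Dixon's criterion, in 28 of 364 groups of named genes (7.69%). Chance gives about 1 in 20 for independent groups, but these genes share arrays. The criterion is relative to the range of the group, so a flagged gap can be small. Ccl2 on array 113 read 5.61 against 5.70 to 5.71 on the other AIRmin control arrays. Array 108 (AIRmax control) held 6 of the 28. It was the highest of its group for the granule genes Elane (11.69), Mpo (11.70) and Ctsg (10.89) and for the interferon gene Oasl1 (7.25), and the lowest for Slc39a14 (6.28) and Bdkrb1 (4.48). Array 114 (AIRmin control) was the highest for Ctsc (10.24), Cd68 (10.00), Ccl3 (6.41) and Ifit2 (5.90). In the same group array 113 was low for Ccl2 (5.61), array 115 high for Ermp1 (8.96) and array 116 low for the muscle gene Mylpf (8.09) and the skin gene Lce1a1 (10.77). Among AIRmax pristane arrays, array 109 was low for C1qa (9.94) and Col3a1 (11.30), array 111 low for Ccl2 (6.17) and Acly (8.93), and array 112 high for Tnfaip3 (7.23) and Aplnr (8.29). Among AIRmin pristane arrays, array 118 was high for Trem2 (7.04) and low for the skin genes Klk5 (8.72) and Tgm1 (8.29). Array 119 was low for Igsf10 (5.50) and Ccl3 (4.79), array 120 high for Gm5105 (3.93) and Traf1 (4.39), and array 117 low for Fcmr (5.13). The cause of these values was not tested.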

How the results depend on the processing

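All 34 called genes kept a difference above 0 in every fit that tested them, and no result changed sign. No gene was called in every one of the 16 fits without 1 array and the 11 other fits. The 34 calls moved to 52 with array weights (all 34 shared), 61 with standardized arrays (all 34 shared), 444 with the granulocyte precursor score, 8 with the skeletal muscle score, 8 with male arrays only (5 shared) and 2 with female arrays only (none shared, Slc13a3 and Tnn). Calls in AIRmax only became 45 with standardized arrays, 150 with the granulocyte score, and 8, 8 and 2 with the muscle score, males and females. Calls in AIRmin only, 0 at first, became 9 with array weights, 213 with the granulocyte score, and 1 with standardized arrays and 1 with genes above the median signal. Array weights gave 1 gene in opposite directions and 1 more negative in AIRmax (Prxl2a), and the granulocyte score 8 and 188. The 338 calls of the AIRmax response became 873 with the granulocyte score, 33 with the muscle score, 211 among bright genes, 14 in males, 25 in females and 56 in the fit of AIRmax arrays alone. The 11 calls in AIRmin became 156 with array weights, 1277 with the granulocyte score, 23 with the muscle score, and 0 in males, 0 in females and 0 in the fit of AIRmin arrays alone. Between control lines the 35 calls became 154 with array weights, 12 among bright genes, 5 in males and 4 in females. Between pristane lines the 1519 calls became 37 with the muscle score, 42 in males and 64 in females. Fewer arrays were fitted in single sexes and lines, and the cause of the other shifts was not tested. Leaving out 1 array at a time gave 15 (without 116) to 120 (without 109) calls of the difference, 15 to 91 in AIRmax only, 0 to 12 in AIRmin only, 0 to 1 in opposite directions and 0 to 3 more negative in AIRmax (Ccr9, Pla2g2a and Rdh12 without 109, Hhip, Rab27b and Tmod1 without 110, Fcmr without 107 and Stard4 without 118). Other counts outside 1.5 times came without 105 (16), 112 (17), 117 (16), 118 (71) and 119 (22). The same fits gave 148 to 476 calls in AIRmax, 0 to 44 in AIRmin, 17 to 42 between control lines and 491 to 2176 between pristane lines. With a difference of at least 1, 31 of the 34 remained. No paired analysis was possible because the array numbers pair no samples across groups.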
